A study of Mus musculus with 20 samples.

Results

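The response to amphetamine in the control line was measured by RNA sequencing of the whole striatum, as the comparison of 5 mice given the drug with 5 given saline. These are 10 of the 20 libraries of the study, 1 library per mouse. The study's other 10 come from a line selected for overactivity in the cage, which received the same treatments. All animals were male Collaborative Cross mice, a population bred from several inbred founder strains, aged about 6 months. The drug group received d-amphetamine at 25 mg/kg and the reference group saline, and tissue was taken 2 hours after the injection. Apart from the injection, the labels give both groups the same line, sex, age and tissue. Of the 37051 loci in the count table, 26475 carried a gene symbol and 17206 of these had enough counts to be tested (65%).

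Amphetamine enters dopamine terminals, displaces dopamine from its vesicles and drives it out through the dopamine transporter. Striatal projection neurons carry either the D1 receptor, which raises cAMP, or the D2 receptor, which lowers it. Cyclic AMP and calcium entry switch on immediate early genes, transcription factors and synaptic proteins whose RNA appears within minutes of a stimulus and declines over the following hours.

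Not a single gene passed the test in the control line. With edgeR's quasi-likelihood test, 0 of 17206 genes (0%) had an adjusted p under 0.05, and the smallest adjusted p was 0.856. DESeq2 and limma-voom on the same genes also gave 0. DESeq2 without the filter on low counts called 2 loci: a minor locus of Pcdh9, described below, and Gm5781, with 666 and 762 counts in amphetamine libraries 4 and 5, 1 count in amphetamine library 3 and 0 in the other 7 libraries. At an unadjusted p under 0.05 there were 957 genes with edgeR (5.56% of those tested), 465 higher and 492 lower after the drug. The same count was 1051 with DESeq2 and 1462 with limma-voom. It was 633 without amphetamine library 4 and 508 without saline libraries 3 and 4. For 172 genes (1%) the groups did not overlap, which means that all 5 libraries of one group had a higher CPM (count relative to library size, scaled by TMM) than any library of the other. Of these, 77 were higher after the drug (0.448%) and 95 lower (0.552%). Log2 fold changes, given throughout as amphetamine against saline, were above 0 for 8403 genes and below 0 for 8803, a share of 48.8% above 0.

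The precision of these values was set by 5 mice a group and library totals of 32633562 to 46493247 counts. The median standard error (SE) of a log2 fold change was 0.11. The 95% interval lay within a 2-fold change in either direction for 15117 genes (87.9%) and within 1.5-fold for 12535 (72.9%). For most genes a change of over 2-fold therefore lay outside the interval, whereas smaller ones could lie within it. Each library came from a separate mouse, and p-values set a difference against the spread between mice, estimated over all 20 libraries of both lines. With only the control line libraries fitted, 1159 genes had an unadjusted p under 0.05 with edgeR.

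Several saline libraries stood apart in markers of tissue around the striatum. Slc17a7, which loads glutamate into the synaptic vesicles of cortical neurons, was at 595, 211, 294, 193 and 522 CPM in saline libraries 1 to 5, against 419 to 602 CPM in the amphetamine libraries. Saline libraries 2, 3 and 4 were thus below all others. The same 3 libraries held more of Gal and Oxt, peptide precursors of the hypothalamus: Oxt was at 5.74, 27.8 and 19.8 CPM there, at 0.053 and 0.365 CPM in saline libraries 1 and 5, and at 0.375 to 4.53 CPM after amphetamine. Ttr, the transthyretin of choroid plexus, was at 216, 18, 0.957, 6.84 and 52.1 CPM in amphetamine libraries 1 to 5 and at 1.06, 106, 654, 11.6 and 109 CPM in saline libraries 1 to 5. Saline library 3 and amphetamine library 1 were highest in it. Striatal identity was present in every library: Ppp1r1b, which encodes DARPP-32, was at 1097 to 1698 CPM and Adora2a at 225 to 306 CPM.

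The 18 meningeal and fibroblast markers all had log2 fold changes below 0 (median -0.56). Their summed level was 298, 207, 163, 263 and 169 CPM in amphetamine libraries 1 to 5 and 260, 212, 650, 474 and 367 CPM in saline libraries 1 to 5, so the groups overlapped through saline libraries 1 and 2. Ptgds, the prostaglandin D synthase of the leptomeninges, made up 67% of that sum (log2 -0.98, SE 0.42, unadjusted p = 0.0324). Without saline libraries 3 and 4 the meningeal median was -0.22. The choroid plexus list, 14 of 14 below 0, had a median of -0.93, which was 0.18 without those libraries. Of the endothelial and mural markers 21 of 22 were below 0 (median -0.17, and -0.18 without saline libraries 3 and 4).

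The endothelial and mural sum was 341 to 363 CPM after amphetamine and 352 to 428 CPM after saline, where saline library 1 alone fell within the range of the drug group. Pecam1, an adhesion molecule of endothelial junctions, was at 12.7 to 14.5 CPM after amphetamine and at 13 to 18.6 CPM after saline (log2 -0.31, SE 0.10, unadjusted p = 0.00588). Vtn, made by pericytes, and Tek, the angiopoietin receptor, had log2 values of -0.46 and -0.22. Cortical markers were above 0 for 17 of 22 genes (median 0.23) and thalamic, hypothalamic and septal markers for 3 of 21 (median -0.36). Without saline libraries 3 and 4 these medians were 0.12 and -0.01, and over the 20 alternatives they ran from 0.04 to 0.33 and from -0.49 to 0.04. Medians were near 0 for astrocytes (0.02), oligodendrocytes (0.02), their precursors (-0.05) and microglia (0.06). Ependymal markers had a median of 0.13, with 8 of 12 above 0. Blood cell markers had a median of -0.69, with 5 of 6 below 0. Their sum was 11 to 31.1 CPM after amphetamine and 19.3 to 105 CPM after saline, highest in saline library 2. In whole tissue, fewer cells of a type and less RNA per cell cannot be told apart, and the part of the surrounding tissue in the values below was not tested.

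**Figure D1:**
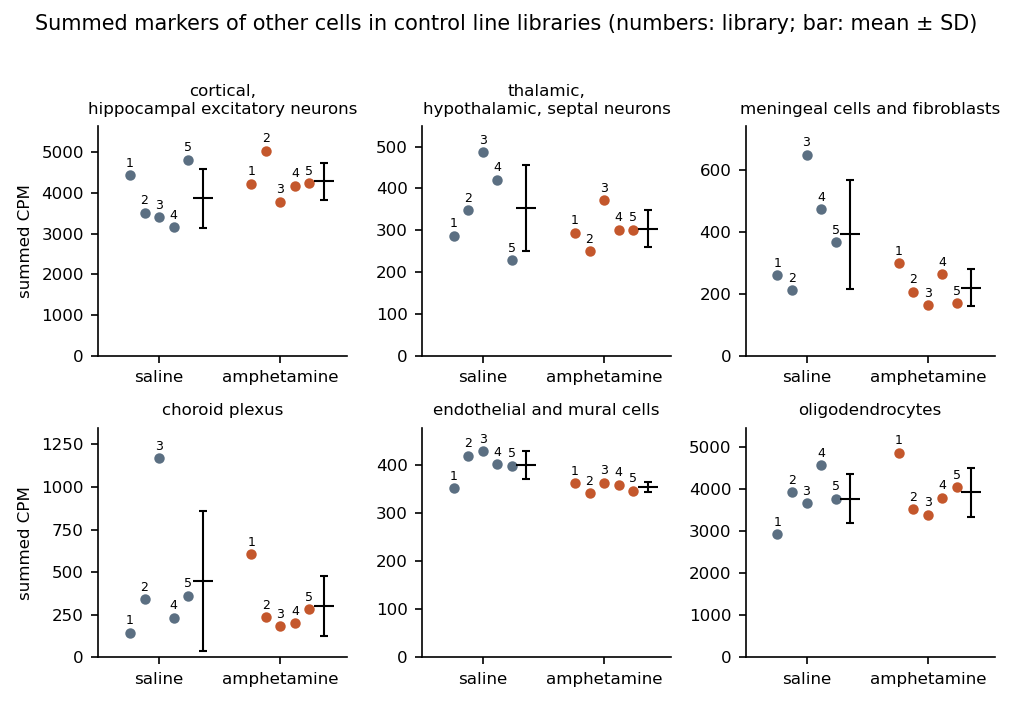
Summed CPM of marker genes of 6 cell classes in each control line library (points, numbered by library), with mean ± SD for each group of 5; the vertical axes start at 0. Saline libraries 3 and 4 hold the highest meningeal sums (650 and 474 CPM), and saline library 3 the highest choroid plexus sum (1168 CPM).

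Every tested gene of the dopamine terminal overlapped between the treatments, where 1% of all genes tested lacked overlap. The striatum holds the axons of dopamine neurons and few of their cell bodies, so these RNAs are scarce there. Slc18a2 encodes the vesicular monoamine transporter, which loads dopamine into vesicles. Slc18a2 was at 6.72, 7.13, 9.92, 8.52 and 8.83 CPM in amphetamine libraries 1 to 5 and at 9.43, 9.18, 11.2, 10.6 and 8.63 CPM in saline libraries 1 to 5 (log2 fold change -0.25, SE 0.11, 95% interval -0.49 to -0.01, unadjusted p = 0.0393). The amphetamine libraries reached lower, but the groups overlapped. The locus counted for Slc18a2 extends beyond the annotated gene, to 59349722 on chromosome 19. Slc6a3, the dopamine transporter through which amphetamine acts, was at most at 0.469 CPM in any library (log2 -0.30, SE 0.46).

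Th, the rate-limiting enzyme of dopamine synthesis, was at 6.87, 13.3, 8.01, 7.52 and 7.32 CPM in amphetamine libraries 1 to 5 and at 6.07, 16.3, 8.81, 8.06 and 5.39 CPM in saline libraries 1 to 5. Library 2 was the highest in both groups, and the log2 fold change of Th was -0.05 (SE 0.25), with a sign that depended on single libraries. Qdpr, which regenerates the cofactor of that enzyme, was at 110, 63.7, 47.1, 83.5 and 55.4 CPM in amphetamine libraries 1 to 5 and at 42.9, 57.5, 59.5, 56.5 and 55.5 CPM in saline libraries 1 to 5 (log2 0.41, SE 0.18, unadjusted p = 0.039). Amphetamine library 1 was the highest and the groups overlapped, and without that library the log2 fold change of Qdpr was 0.20. In all, 6 of the 15 tested genes of this list had values above 0 and 9 below, with a median of -0.05 against -0.00 over all genes, and 0 were called.

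Dopamine receptors showed no separation of the groups. Drd1a, the D1 receptor of the direct pathway, at chromosome 13, 54051183 to 54055705 (GRCm38), was at 262, 268, 251, 237 and 276 CPM in amphetamine libraries 1 to 5 and at 246, 303, 241, 235 and 257 CPM in saline libraries 1 to 5 (log2 fold change 0.01, SE 0.13, 95% interval -0.27 to 0.29). Drd2, the D2 receptor of the indirect pathway, was at 202, 195, 193, 184 and 233 CPM in amphetamine libraries 1 to 5 and at 178, 204, 193, 168 and 224 CPM in saline libraries 1 to 5 (log2 fold change 0.06, SE 0.12, 95% interval -0.19 to 0.31). The ranges of the groups largely coincided for both receptors, and both intervals lay within a 1.5-fold change. For both receptors the locus counted extends beyond the annotated gene. Drd3, a D2-like receptor of the ventral striatum, was at 12, 6.42, 18.2, 13.2 and 10.5 CPM in amphetamine libraries 1 to 5 and at 20.3, 22.9, 21.1, 13.9 and 6.69 CPM in saline libraries 1 to 5. Its log2 fold change was -0.49 (SE 0.29), with amphetamine library 2 and saline library 5 the lowest of their groups. Drd5, a D1-like receptor at 1.85 to 3.47 CPM, had a log2 value of 0.25 (SE 0.18). The loci counted for Drd3 and Drd5 also extend beyond the annotated genes. That of Drd5 reaches 38502152 on chromosome 5, far beyond the end of the gene at 38322518, so the value is uncertain as a value of Drd5.

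Downstream of these receptors, 29 of 37 tested genes of cAMP signalling in projection neurons had values above 0 (median 0.08, and 0.02 without saline libraries 3 and 4). None passed, none had an unadjusted p under 0.05, and in no case did the groups lack overlap. Over all genes tested these shares were 0%, 5.56% and 1%. Camk4, a calcium-dependent kinase that phosphorylates CREB, was at 494 to 727 CPM after amphetamine and 408 to 608 CPM after saline (log2 0.27, SE 0.14). Prkacb, a catalytic subunit of protein kinase A, was at 719 to 800 CPM against 692 to 752 CPM (log2 0.09, SE 0.05). Adcy1, a calcium-stimulated adenylyl cyclase also abundant in cortex, was lowest in saline libraries 2, 3 and 4 (283, 334 and 246 CPM), the libraries with the least Slc17a7, and its log2 fold change was 0.31 (SE 0.21). Ppp1r1b, whose product integrates dopamine and glutamate signals, had a log2 value of 0.06 (SE 0.13) and Adora2a, the adenosine receptor of indirect pathway neurons, one of 0.02 (SE 0.12).

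Peptide precursors of the projection neurons were likewise close between the groups. Pdyn, the dynorphin precursor of direct pathway neurons, was at 110, 106, 153, 112 and 132 CPM in amphetamine libraries 1 to 5 and at 160, 139, 117, 108 and 112 CPM in saline libraries 1 to 5 (log2 fold change -0.05, SE 0.15, 95% interval -0.37 to 0.27). Penk, the enkephalin precursor of indirect pathway neurons, was at 1200, 1365, 1101, 1259 and 1132 CPM in amphetamine libraries 1 to 5 and at 1025, 1390, 1043, 1023 and 1288 CPM in saline libraries 1 to 5 (log2 fold change 0.07, SE 0.13, 95% interval -0.20 to 0.34). Both sets of values interleaved. Tac1, the substance P precursor, was at 195, 208, 214, 244 and 203 CPM in amphetamine libraries 1 to 5 and at 248, 268, 239, 199 and 208 CPM in saline libraries 1 to 5 (log2 fold change -0.13, SE 0.12, 95% interval -0.38 to 0.12), again with overlap. Cartpt had a log2 value of -0.36 (SE 0.23), and Cck, a peptide also abundant in cortex, one of 0.47 (SE 0.34) with saline libraries 2, 3 and 4 lowest. Of the 21 tested peptides and receptors, 10 were above 0 and 11 below (median -0.04).

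Markers of projection neurons divided 19 to 11 around 0 (median 0.02) and those of interneurons 8 to 11 (median -0.05). Lhx6, a transcription factor of interneurons from the medial ganglionic eminence, was at 25.3 to 33.8 CPM after amphetamine and 26.7 to 39.4 CPM after saline (log2 -0.25, SE 0.12, unadjusted p = 0.041). Trh, a peptide of a class of interneurons and of the hypothalamus, was at 2.97 to 3.57 CPM in all 5 amphetamine libraries. In saline it was at 1.32, 6.93, 12.5, 12.2 and 2.79 CPM (log2 -1.16, SE 0.59), high in the 3 libraries that were also high in Oxt.

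**Figure D2:**
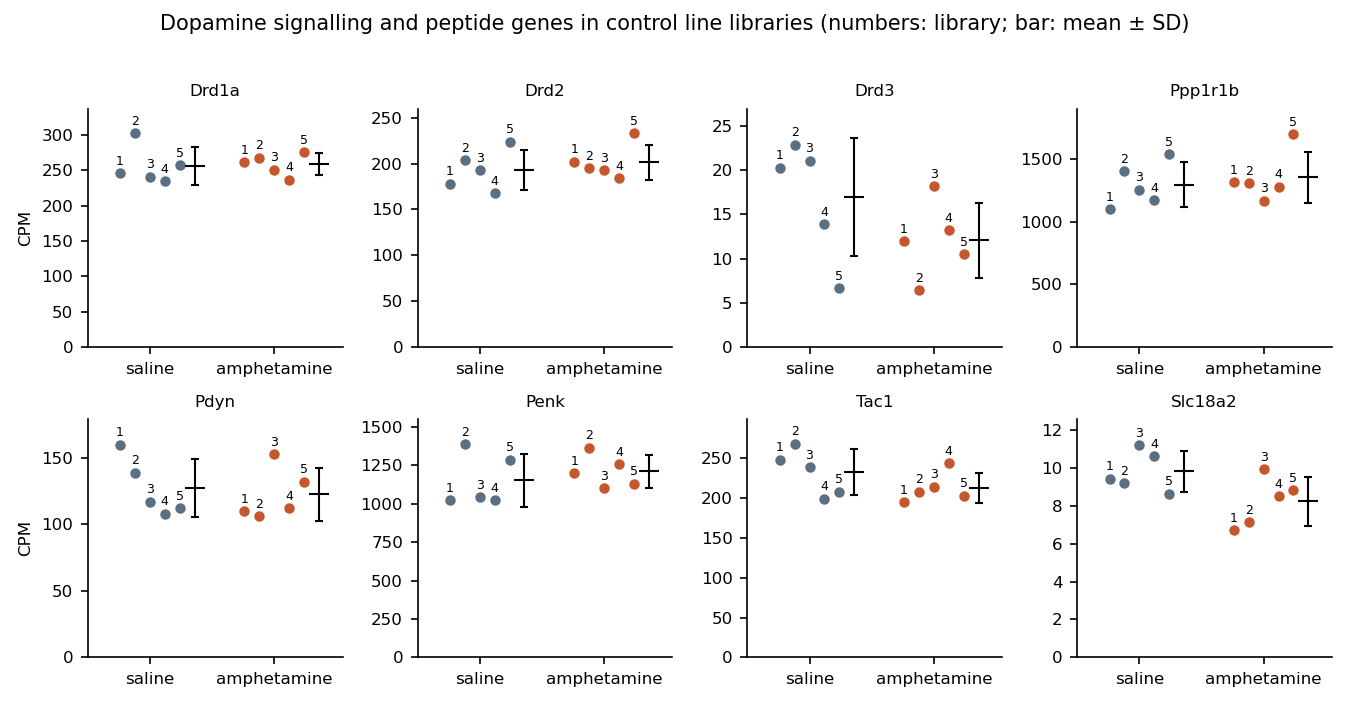
CPM of 8 genes of dopamine signalling and striatal peptides in each control line library (points, numbered by library), with mean ± SD for each group of 5; the vertical axes start at 0. The groups overlap in all 8 panels, with Drd1a at 235 to 303 CPM over the 10 libraries.

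Immediate early transcription factors had the highest median of the 26 gene lists that are not cell type markers, at a log2 value of 0.17. Of the 36 tested, 33 were above 0 and 3 below, while 0 were called. An unadjusted p under 0.05 was found for 1 of them, against 5.56% of all genes tested. The median was 0.06 to 0.23 over the 20 alternative analyses and 0.08 without saline libraries 3 and 4. The spread within each group was wide, and for none of the 36 did the groups lack overlap, against 1% of all genes tested. The 36 were measured in the same libraries and can vary together, so their count above 0 does not come from independent values.

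The promoters of 3 of these activity-induced genes are shown because CREB, the factor activated by cAMP and calcium, acts through the cAMP response element, whose core letters occur in all 3. Each runs from 250 bases before to 50 after the transcription start, 5′ to 3′ on the gene's strand, from RefSeq on GRCm38.p6. Capitals mark the full cAMP response element TGACGTCA and its core TGACG on either strand (CGTCA where it lies on the other strand), and each full element contains the core.
Fos, chr12:85473640-85473939, strand +: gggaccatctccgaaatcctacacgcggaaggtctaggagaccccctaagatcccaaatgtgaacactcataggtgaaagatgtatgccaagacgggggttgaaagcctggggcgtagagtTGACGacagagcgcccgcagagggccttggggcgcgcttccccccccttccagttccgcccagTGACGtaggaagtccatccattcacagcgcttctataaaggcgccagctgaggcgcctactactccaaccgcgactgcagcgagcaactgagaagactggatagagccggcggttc
Nr4a1, chr15:101266596-101266895, strand +: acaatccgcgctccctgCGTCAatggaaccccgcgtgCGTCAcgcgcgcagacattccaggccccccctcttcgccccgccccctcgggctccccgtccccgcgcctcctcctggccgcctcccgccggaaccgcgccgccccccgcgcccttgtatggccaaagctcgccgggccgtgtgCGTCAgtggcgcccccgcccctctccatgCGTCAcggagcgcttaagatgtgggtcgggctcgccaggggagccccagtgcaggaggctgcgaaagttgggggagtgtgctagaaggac
Dusp1, chr17:26508423-26508722, strand -: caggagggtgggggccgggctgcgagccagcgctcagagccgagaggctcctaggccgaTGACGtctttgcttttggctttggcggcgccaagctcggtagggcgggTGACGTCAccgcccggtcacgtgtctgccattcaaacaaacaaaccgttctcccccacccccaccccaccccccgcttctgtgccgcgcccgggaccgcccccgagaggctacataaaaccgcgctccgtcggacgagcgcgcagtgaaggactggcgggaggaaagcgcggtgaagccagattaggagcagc
The core occurred at 2 places in the Fos window, 4 in that of Nr4a1 and 2 in that of Dusp1, of which 1 is the full element. The full element was not among the letters of the Fos and Nr4a1 windows. Among the 29 immediate early transcription factors with a promoter in the RefSeq table, 22 (75.9%) had the core and 3 (10.3%) the full element, against 23% and 2.03% of all 27025 genes in the table, counted the same way over any promoter of a gene. Per promoter the shares were 20.8% and 1.79% of 32851. Such a match describes the letters only.

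Fos encodes a partner of the AP-1 complex and is the most used marker of recent neuronal activity. Fos was at 5.75, 20.1, 9.11, 19 and 27.9 CPM in amphetamine libraries 1 to 5 and at 15.1, 12.2, 7.09, 9 and 8.36 CPM in saline libraries 1 to 5 (log2 fold change 0.66, SE 0.42, 95% interval -0.21 to 1.53, unadjusted p = 0.127). Amphetamine libraries 2, 4 and 5 were above every saline library, and amphetamine library 1 was below all of them. Junb, another AP-1 partner, was at 30.7, 71.8, 39.5, 60.6 and 93.6 CPM in amphetamine libraries 1 to 5 and at 57.9, 53.5, 37.2, 39.4 and 49.8 CPM in saline libraries 1 to 5 (log2 fold change 0.32, SE 0.28, 95% interval -0.27 to 0.90). It followed the order of Fos, with libraries 2, 4 and 5 high and library 1 lowest of all 10. Fosb was at 14.4, 26.5, 18.3, 19.5 and 24.4 CPM in amphetamine libraries 1 to 5 and at 20.6, 20.5, 15.2, 17.1 and 16.9 CPM in saline libraries 1 to 5 (log2 fold change 0.19, SE 0.29, 95% interval -0.42 to 0.80), with the groups overlapping. Without amphetamine library 5 the log2 fold change was 0.38 for Fos and 0.09 for Junb, and without amphetamine library 2 that of Fosb was 0.09.

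Egr1, a zinc finger factor of synaptic activity, was at 189, 391, 247, 326 and 368 CPM in amphetamine libraries 1 to 5 and at 348, 300, 198, 228 and 302 CPM in saline libraries 1 to 5 (log2 fold change 0.15, SE 0.26, 95% interval -0.40 to 0.69). Nr4a1, an orphan nuclear receptor, was at 38.4, 122, 48.8, 95.9 and 129 CPM in amphetamine libraries 1 to 5 and at 99.4, 91.9, 43.3, 64.7 and 56.6 CPM in saline libraries 1 to 5 (log2 fold change 0.29, SE 0.38, 95% interval -0.50 to 1.08). Both were highest in amphetamine libraries 2 and 5 and lowest in amphetamine library 1, so that the drug group enclosed the saline group. Npas4, a factor that responds to calcium entry, was at 21, 40, 26.8, 32.9 and 31.1 CPM in amphetamine libraries 1 to 5 and at 36.6, 26.7, 29, 17.2 and 33.2 CPM in saline libraries 1 to 5 (log2 fold change 0.09, SE 0.27, 95% interval -0.48 to 0.66). Its values ran through the same range in both groups. Leaving out 1 library at a time moved the log2 fold change from 0.10 (amphetamine library 5) to 0.47 (amphetamine library 1) for Nr4a1, and from 0.04 (amphetamine library 2) to 0.28 (amphetamine library 1) for Egr1.

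Cebpd, a stress- and cytokine-responsive factor, had the smallest p of the list. The locus counted for it, 15886731 to 16272712 on chromosome 16, extends far beyond the annotated gene at 15887286 to 15891031. The value is therefore uncertain as a value of Cebpd. Cebpd was at 3.62, 3.23, 2.52, 3.64 and 3.72 CPM in amphetamine libraries 1 to 5 and at 2.49, 2.82, 2.48, 2.03 and 2.7 CPM in saline libraries 1 to 5 (log2 fold change 0.42, SE 0.13, 95% interval 0.14 to 0.70, unadjusted p = 0.00507). In the drug group 4 libraries were above every saline library, and library 3 was within the saline range. Ier2, an immediate early nuclear protein, was at 2.27, 3.68, 2.06, 3.7 and 4.01 CPM in amphetamine libraries 1 to 5 and at 2.94, 2.06, 2.16, 1.97 and 2.19 CPM in saline libraries 1 to 5 (log2 0.48, SE 0.23, unadjusted p = 0.0523). Libraries 2, 4 and 5 were again the high ones.

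Feedback inhibitors of the MAP kinase pathway had a median of 0.03, with 13 of 16 above 0 and 0 called. At an unadjusted p under 0.05 there were 0, against 5.56% of all genes tested. Dusp1, a phosphatase of MAP kinases, was at 14.4, 22.8, 12.6, 20 and 33.9 CPM in amphetamine libraries 1 to 5 and at 19.4, 18.6, 14.7, 14.6 and 17.8 CPM in saline libraries 1 to 5 (log2 fold change 0.29, SE 0.22, 95% interval -0.17 to 0.75). Dusp6, a phosphatase specific to ERK, was at 38.5, 66.1, 42, 56.8 and 50.4 CPM in amphetamine libraries 1 to 5 and at 51.5, 41.1, 34.9, 37.3 and 37.3 CPM in saline libraries 1 to 5 (log2 0.33, SE 0.22). Amphetamine library 5 was highest in the one and library 2 in the other, and both genes overlapped between groups. Without these libraries, the log2 fold change was 0.04 for Dusp1 (library 5 left out) and 0.21 for Dusp6 (library 2 left out).

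Effectors, the synaptic, secreted and kinase genes that follow activity, were above 0 for 36 of 45 tested genes (median 0.10, and 0.04 without saline libraries 3 and 4). Of these, 0 were called, 2 had an unadjusted p under 0.05 and none lacked overlap, against 0%, 5.56% and 1% of all genes tested. Arc, a capsid-forming protein that regulates AMPA receptor traffic, was at 40, 202, 80.3, 161 and 215 CPM in amphetamine libraries 1 to 5 and at 171, 113, 53, 56.9 and 89.9 CPM in saline libraries 1 to 5 (log2 fold change 0.53, SE 0.46, 95% interval -0.42 to 1.49, unadjusted p = 0.257). Amphetamine libraries 2, 4 and 5 and saline library 1 were high together, while amphetamine library 1 was below every saline library and library 3 within their range. Homer1, a scaffold whose short form is induced by activity, was at 408, 598, 454, 448 and 353 CPM in amphetamine libraries 1 to 5 and at 452, 411, 359, 342 and 417 CPM in saline libraries 1 to 5 (log2 0.19, SE 0.18), with amphetamine library 2 far above the rest, without which the value for Homer1 was 0.07. For Arc it was 0.32 without amphetamine library 5 and 0.84 without saline library 1.

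Cyr61, a secreted matrix protein, was at 3.7, 3.64, 4.21, 5.38 and 12.4 CPM in amphetamine libraries 1 to 5 and at 3.6, 3.18, 3.39, 3.42 and 3.7 CPM in saline libraries 1 to 5 (log2 fold change 0.76, SE 0.27, 95% interval 0.21 to 1.32, unadjusted p = 0.00989). That value rested on amphetamine library 5, without which the log2 fold change was 0.29. Ptgs2, the inducible cyclooxygenase, was at 8.89, 14.6, 6.06, 13.1 and 6.24 CPM in amphetamine libraries 1 to 5 and at 8.08, 7.07, 6.51, 5.25 and 5.12 CPM in saline libraries 1 to 5 (log2 0.61, SE 0.29, unadjusted p = 0.0498). Libraries 2 and 4 of the drug group held the highest values and libraries 3 and 5 lay within the saline range.

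**Figure D3:**
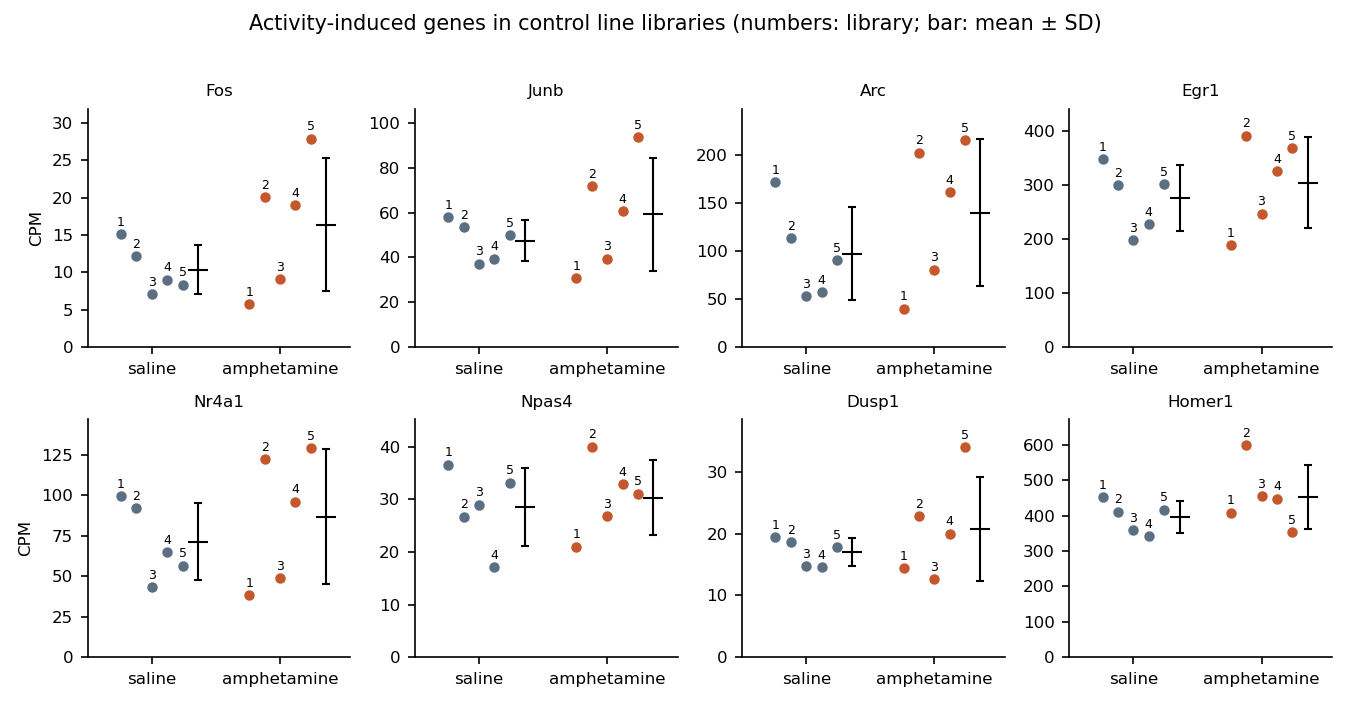
CPM of 8 activity-induced genes in each control line library (points, numbered by library), with mean ± SD for each group of 5; the vertical axes start at 0. Amphetamine library 1 is the lowest of all 10 for Junb (30.7 CPM), Arc (40 CPM), Egr1 (189 CPM) and Nr4a1 (38.4 CPM), and the drug group spans the saline group for these genes.

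Glutamate receptor and scaffold genes included 2 whose groups did not overlap, Grik3 and Grm3, 1 in each of the lists counted below. Grik3, a kainate receptor subunit at chromosome 4, 125490700 to 125714173 (GRCm38), was at 159, 175, 172, 167 and 177 CPM in amphetamine libraries 1 to 5 and at 152, 138, 143, 130 and 141 CPM in saline libraries 1 to 5 (log2 fold change 0.27, SE 0.07, 95% interval 0.12 to 0.43, unadjusted p = 0.0016). The lowest drug library, at 159 CPM, was above the highest saline library at 152 CPM. Grm3, a metabotropic receptor of astrocytes and presynaptic terminals, was at 114, 105, 102, 111 and 106 CPM in amphetamine libraries 1 to 5 and at 88, 92.7, 88.4, 85.8 and 95.3 CPM in saline libraries 1 to 5 (log2 fold change 0.26, SE 0.10, 95% interval 0.05 to 0.46, unadjusted p = 0.0182), also without overlap. Homer2, a scaffold of these receptors, was at 36.8, 46.2, 45.1, 40.5 and 39.7 CPM in amphetamine libraries 1 to 5 and at 41.2, 30.2, 33.2, 31.7 and 32.9 CPM in saline libraries 1 to 5 (log2 0.30, SE 0.11, unadjusted p = 0.0111), where saline library 1 alone lay among the drug libraries. Of the 18 tested AMPA, kainate and NMDA subunits, 12 were above 0 (median 0.06). Of the 22 tested metabotropic receptors and scaffolds, 19 were above 0 (median 0.11), 3 had an unadjusted p under 0.05 and 1 lacked overlap. Over all genes tested, 5.56% had an unadjusted p under 0.05 and 1% lacked overlap. The locus counted for Grm3 starts at 9266193 on chromosome 5, far outside the annotated gene at 9485541 to 9725170. The value is therefore uncertain as a value of Grm3.

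Inhibitory receptors were above 0 for 12 of 16 tested genes (median 0.08), 3 of them with an unadjusted p under 0.05, against 5.56% of all genes. Gabra5, a subunit of extrasynaptic GABA-A receptors at chromosome 7, 57407672 to 57510059 (GRCm38), was at 41.4, 43.2, 40.6, 41.6 and 43.3 CPM in amphetamine libraries 1 to 5 and at 39.8, 31.5, 36.2, 34.8 and 37.5 CPM in saline libraries 1 to 5 (log2 fold change 0.22, SE 0.06, 95% interval 0.10 to 0.35, unadjusted p = 0.00174). The drug group lay within 40.6 to 43.3 CPM, above all saline libraries, of which library 1 was the closest. Saline libraries 2, 3 and 4, those with the least Slc17a7, were the lowest. Gabbr1, a subunit of the GABA-B receptor, was at 957, 904, 866, 940 and 904 CPM in amphetamine libraries 1 to 5 and at 815, 845, 820, 839 and 879 CPM in saline libraries 1 to 5 (log2 0.12, SE 0.05, unadjusted p = 0.0163), with amphetamine library 3 below saline library 5. The groups lacked overlap for 1 of the 16 genes, Gabra5, against 1% of all genes.

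Receptors of serotonin, acetylcholine and noradrenaline were above 0 for 18 of 27 (median 0.08). Htr2c was at 80.5 to 110 CPM after amphetamine and 87.1 to 124 CPM after saline (log2 -0.23, SE 0.12), whereas Htr2a was at 48.1 to 75.6 CPM against 35.3 to 65 CPM (log2 0.31, SE 0.16). Both encode Gq-coupled serotonin receptors, and neither separated the groups. Potassium channels were above 0 for 29 of 41 (median 0.06) and sodium and calcium channels for 24 of 30 (median 0.05). In each of these channel lists 2 had an unadjusted p under 0.05, against 5.56% of all genes tested. Kcnh7, an ERG-type potassium channel, was at 9.1 to 18.3 CPM after the drug and 8.64 to 11.9 CPM after saline (log2 0.50, SE 0.21, unadjusted p = 0.0301), with amphetamine libraries 2 and 4 highest. Within saline, Kcnh7 was lowest in libraries 2, 3 and 4, those with the least Slc17a7. Scn2a1, a neuronal sodium channel, was at 368 to 445 CPM against 325 to 385 CPM (log2 0.19, SE 0.07, unadjusted p = 0.0193).

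Glucocorticoid-responsive genes, which corticosterone induces through its nuclear receptor, were above 0 for 27 of 32 (median 0.08, and 0.10 without saline libraries 3 and 4). In this list 0 were called, 2 had an unadjusted p under 0.05 and 1 lacked overlap, against 5.56% and 1% of all genes. Klf9, a zinc finger factor directly induced by the receptor, at chromosome 19, 23141226 to 23168134 (GRCm38), was at 292, 315, 290, 370 and 308 CPM in amphetamine libraries 1 to 5 and at 269, 287, 236, 239 and 256 CPM in saline libraries 1 to 5 (log2 fold change 0.29, SE 0.09, 95% interval 0.10 to 0.48, unadjusted p = 0.00494). The lowest drug library, at 290 CPM, was above the highest saline library at 287 CPM. Pdk4, a kinase that shuts off pyruvate oxidation, was at 29.6, 19.2, 19.3, 31.6 and 27.5 CPM in amphetamine libraries 1 to 5 and at 14.7, 23.4, 15.7, 20.5 and 17 CPM in saline libraries 1 to 5 (log2 fold change 0.48, SE 0.19, 95% interval 0.09 to 0.87, unadjusted p = 0.0182), where libraries 1, 4 and 5 of the drug group were high and libraries 2 and 3 within the saline range.

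Sgk1, a kinase induced by corticosteroids, was at 141, 102, 109, 127 and 130 CPM in amphetamine libraries 1 to 5 and at 68.3, 115, 102, 93.9 and 106 CPM in saline libraries 1 to 5 (log2 fold change 0.32, SE 0.24, 95% interval -0.17 to 0.81). Saline library 1 was the lowest of the 10 and the groups otherwise overlapped. Fkbp5, a chaperone of the receptor, was at 79.4, 67.8, 68.8, 94.1 and 72.9 CPM in amphetamine libraries 1 to 5 and at 69.2, 74.3, 67.2, 66.9 and 61.4 CPM in saline libraries 1 to 5 (log2 fold change 0.18, SE 0.11, 95% interval -0.06 to 0.42), with amphetamine library 4 highest. Per1, a clock gene also induced by glucocorticoids and by activity, had a log2 value of 0.03 (SE 0.14), and 12 of 18 clock genes were above 0 (median 0.03).

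Chaperones and RNA-binding proteins mostly had values below 0. Heat shock and folding genes were below 0 for 22 of 26 (median -0.06), and RNA-binding proteins that respond to temperature for 15 of 16 (median -0.07). Of the 16, 4 had an unadjusted p under 0.05, against 5.56% of all genes tested. The groups did not overlap for 3 of these 16 genes, against 1% of all genes tested. Srsf6, a splicing factor at chromosome 2, 162931528 to 162937121 (GRCm38), was at 148, 143, 153, 137 and 144 CPM in amphetamine libraries 1 to 5 and at 163, 156, 162, 163 and 153 CPM in saline libraries 1 to 5 (log2 fold change -0.14, SE 0.05, 95% interval -0.24 to -0.04, unadjusted p = 0.0108). The highest drug library and the lowest saline library both rounded to 153 CPM, and the groups did not overlap. The locus counted for Srsf6 extends beyond the annotated gene, to 162977126. Luc7l3, a component of the U1 splicing particle, was at 227, 205, 224, 217 and 226 CPM in amphetamine libraries 1 to 5 and at 231, 245, 241, 236 and 237 CPM in saline libraries 1 to 5 (log2 -0.11, SE 0.04, unadjusted p = 0.00925). Tra2a, another splicing regulator, was at 121 to 125 CPM after amphetamine and 129 to 162 CPM after saline (log2 -0.16, SE 0.08, unadjusted p = 0.0496), and is named here after its values were seen.

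Hspa1a, the inducible Hsp70, was at 4.42 to 7.26 CPM after the drug and 3.98 to 8.73 CPM after saline (log2 -0.10, SE 0.28). Hspb8 and its partner Bag3, which direct damaged proteins to autophagy, had log2 values of -0.40 (unadjusted p = 0.0473) and -0.27 (unadjusted p = 0.078), with saline libraries 2, 3 and 4 highest in Hspb8 at 10.4, 11.3 and 11.8 CPM. Genes of the unfolded protein response were below 0 for 13 of 22 (median -0.02), among them Ddit3, which encodes CHOP, at 17.5 to 19.5 CPM against 18.8 to 22 CPM (log2 -0.16, SE 0.07, unadjusted p = 0.025). Antioxidant genes were below 0 for 18 of 24 (median -0.04). Slc7a11, the cystine importer, was at 34.9 to 43.5 CPM after the drug and at 39.1, 38.8, 66.7, 65.3 and 48 CPM in saline libraries 1 to 5 (log2 -0.37, SE 0.17), high in the 2 libraries that were also highest in meningeal markers. Txn1, thioredoxin, had a log2 value of -0.15 (unadjusted p = 0.0412). Gclc, the first enzyme of glutathione synthesis, was at 79.7 to 88.3 CPM against 73.7 to 79.7 CPM (log2 0.10, SE 0.06, unadjusted p = 0.105), and is also named after its values were seen. Its lowest drug library and highest saline library both rounded to 79.7 CPM, and the groups did not overlap. The groups lacked overlap for 1 of the 24 genes, Gclc, against 1% of all genes tested.

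Cytoplasmic ribosomal proteins had values below 0 for 73 of 78 genes (median -0.09), against a median of -0.00 over all genes. These genes were measured in the same libraries and can vary together, so the count does not come from independent values. None was called, none lacked overlap and 3 had an unadjusted p under 0.05, against 0%, 1% and 5.56% of all genes tested. Rps15 was at 210, 180, 210, 162 and 198 CPM in amphetamine libraries 1 to 5 and at 221, 219, 238, 207 and 231 CPM in saline libraries 1 to 5 (log2 -0.22, SE 0.08, unadjusted p = 0.0149). Amphetamine libraries 2 and 4 were lowest. The ribosomal sum was 10041 to 12548 CPM after amphetamine and 11665 to 12780 CPM after saline, the lowest being amphetamine library 2. Rpl14 had a log2 value of -0.17 (unadjusted p = 0.0206).

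Nuclear-encoded subunits of oxidative phosphorylation were below 0 for 53 of 71 (median -0.03). Ndufs6 and Ndufb4, both parts of complex I, had values on opposite sides of 0, at -0.17 (unadjusted p = 0.0167) and 0.15 (unadjusted p = 0.0165). Genes of cholesterol synthesis were above 0 for 17 of 23 (median 0.07). Fdft1, squalene synthase, was at 85.9 to 111 CPM after amphetamine and 74.7 to 91.4 CPM after saline (log2 0.19, SE 0.08, unadjusted p = 0.0381). Protocadherins divided 6 to 5 (median 0.02) and interferon and inflammatory genes 8 to 9 (median -0.02).

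**Figure D4:**
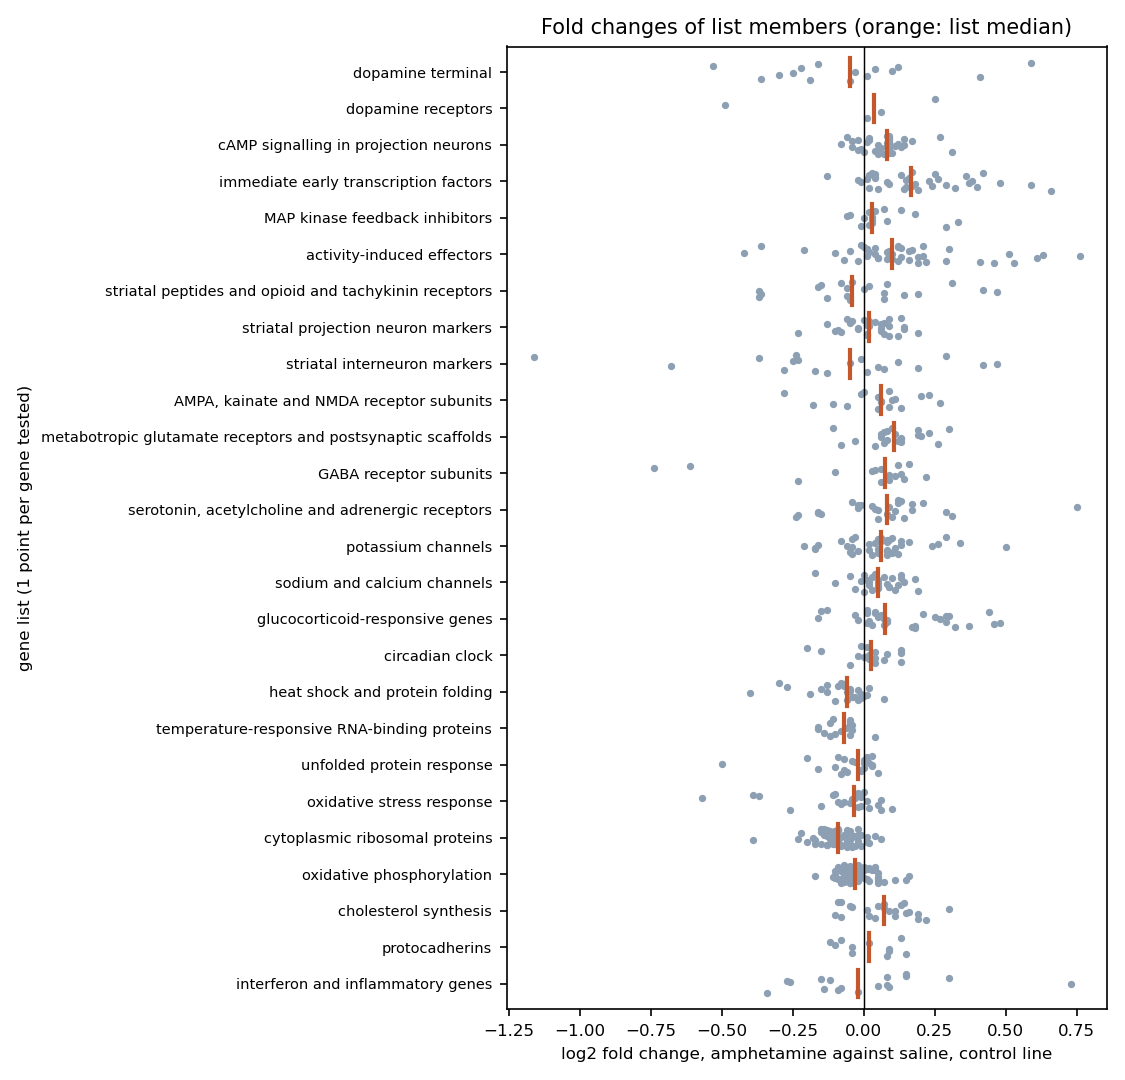
Log2 fold change of every tested member (points) of 26 gene lists, amphetamine against saline in the control line, with the list medians in orange. Medians run from -0.09 (cytoplasmic ribosomal proteins) to 0.17 (immediate early transcription factors), and none of the members was called.

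Most of the genes with the smallest p differed little in level and had tight replicates. Necab1, a neuronal calcium-binding protein at chromosome 4, 14952245 to 15149794 (GRCm38), was at 210, 208, 185, 220 and 194 CPM in amphetamine libraries 1 to 5 and at 181, 174, 171, 166 and 172 CPM in saline libraries 1 to 5 (log2 fold change 0.24, SE 0.06, 95% interval 0.12 to 0.35, unadjusted p = 3.85e-04). It had the smallest p of the genes above 0, and its groups did not overlap. Nedd9, a scaffold of focal adhesions, was at 13.8, 12.4, 12.9, 13.3 and 13.2 CPM in amphetamine libraries 1 to 5 and at 10.9, 9.37, 11.5, 11.5 and 10.3 CPM in saline libraries 1 to 5 (log2 fold change 0.30, SE 0.08, 95% interval 0.13 to 0.46, unadjusted p = 0.00144). Lmbrd1, a lysosomal exporter of vitamin B12, was at 194, 196, 179, 208 and 181 CPM in amphetamine libraries 1 to 5 and at 169, 167, 171, 175 and 172 CPM in saline libraries 1 to 5 (log2 fold change 0.17, SE 0.04, 95% interval 0.08 to 0.26, unadjusted p = 0.00114). For both, all 5 drug libraries were above all 5 saline libraries.

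The other genes above 0 taken by smallest p were Naaladl2 (log2 0.85, SE 0.22), at 2.19 to 3.67 CPM against 0.875 to 2.22 CPM, Azin1 (log2 0.17, SE 0.04), which stabilises ornithine decarboxylase, Cyb5b (log2 0.20, SE 0.05), a cytochrome of the outer mitochondrial membrane, Zbtb33 (log2 0.16, SE 0.04), the methyl-DNA-binding factor Kaiso, and Pgm2l1 (log2 0.31, SE 0.09), an enzyme that makes glucose bisphosphate. Grik3 and Gabra5, described above, complete the 10. The unadjusted p of these 10 lay between 3.85e-04 and 0.00188, and 5 of them had no overlap, against 1% of all genes tested. The 10 were taken for their small p in this same comparison, so that count is not a separate result.

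Below 0, the smallest p of all belonged to a minor locus of Pcdh9, XLOC_010847, on chromosome 14 at 93013701 to 93891915 in the table. XLOC_010847 was at 0.924, 0.863, 1.07, 0.704 and 0.984 CPM in amphetamine libraries 1 to 5 and at 1.96, 1.69, 2.13, 1.43 and 2.4 CPM in saline libraries 1 to 5 (log2 fold change -1.08, SE 0.22, 95% interval -1.53 to -0.63, unadjusted p = 8.08e-05, edgeR adjusted p = 0.856). The groups did not overlap. A second locus, XLOC_010508, has the same symbol and the same span and holds nearly all of the Pcdh9 counts, at 139 ± 13.6 CPM after amphetamine and 131 ± 9.19 CPM after saline (SD, n = 5 each). Its log2 fold change was 0.09 (SE 0.08). How reads were divided between the pair is not given in the sources used here, so the value of the minor locus is uncertain as a value of Pcdh9, a protocadherin of neuronal adhesion.

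Polr3gl, a subunit of RNA polymerase III at chromosome 3, 96577872 to 96594181 (GRCm38), was at 17.6, 18, 17.7, 17.2 and 16.5 CPM in amphetamine libraries 1 to 5 and at 21.5, 19.9, 20.4, 23.7 and 20.3 CPM in saline libraries 1 to 5 (log2 fold change -0.28, SE 0.06, 95% interval -0.42 to -0.15, unadjusted p = 2.67e-04). Glt8d1, a Golgi glycosyltransferase, was at 18.3, 19.5, 23.1, 19.1 and 20.2 CPM in amphetamine libraries 1 to 5 and at 27, 23.6, 26.1, 26.6 and 23.8 CPM in saline libraries 1 to 5 (log2 fold change -0.34, SE 0.08, 95% interval -0.51 to -0.18, unadjusted p = 3.58e-04). Scnm1, a component of the minor spliceosome, was at 15.7, 15.6, 15.9, 15.6 and 14.7 CPM in amphetamine libraries 1 to 5 and at 19.9, 19.1, 22.3, 17.2 and 20.9 CPM in saline libraries 1 to 5 (log2 fold change -0.36, SE 0.09, 95% interval -0.55 to -0.17, unadjusted p = 8.33e-04). In each of these 3, every saline library was above every drug library. Slc31a2, a copper transporter, was at 16.5 to 22.2 CPM against 23 to 28.6 CPM (log2 -0.42, SE 0.11), and Pign, an enzyme of GPI anchor synthesis, at 17.3 to 22.2 CPM against 22.6 to 26.1 CPM (log2 -0.29, SE 0.07), both without overlap.

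The remaining 4 were Chchd1 (log2 -0.41, SE 0.10), a mitochondrial ribosomal protein whose locus in the table extends beyond the annotated gene, Cyp2t4 (log2 -0.78, SE 0.19) at 1.1 to 3.15 CPM, 1600027N09Rik (log2 -0.21, SE 0.05) and Tysnd1 (log2 -0.41, SE 0.11), a peroxisomal protease. Tysnd1 and 1600027N09Rik each have a second locus with the same span. For Tysnd1 the locus named is the minor one, at 2.62 ± 0.0875 CPM after amphetamine and 3.48 ± 0.274 CPM after saline, while its major locus, at 15.3 ± 1.14 and 15.5 ± 1.32 CPM (SD, n = 5 each), had a log2 value of -0.01 (SE 0.08). For 1600027N09Rik the second locus had a log2 value of -0.01 (SE 0.12).

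**Figure D5:**
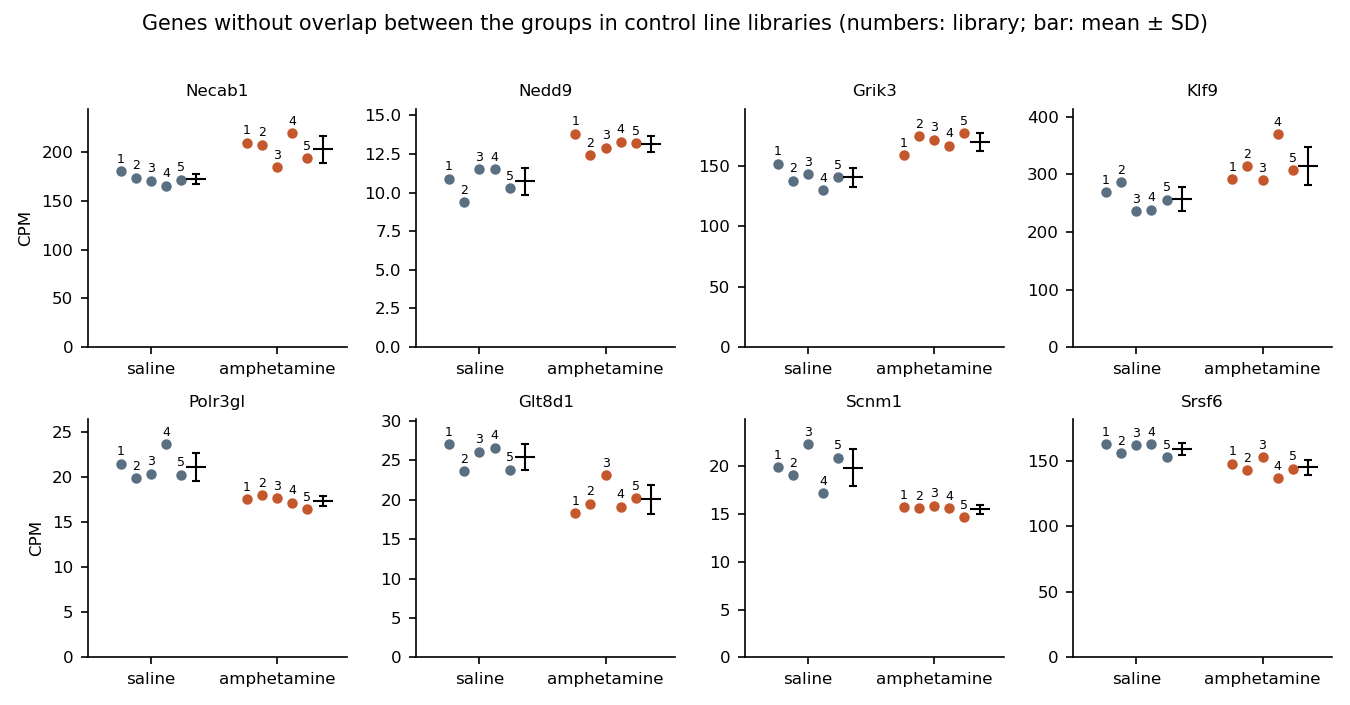
CPM of 8 genes whose control line groups do not overlap, in each library (points, numbered by library), with mean ± SD for each group of 5; the vertical axes start at 0. Necab1, Nedd9, Grik3 and Klf9 are higher and Polr3gl, Glt8d1, Scnm1 and Srsf6 lower in all 5 amphetamine libraries, by log2 values from -0.36 (Scnm1) to 0.30 (Nedd9).

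In the overactive line, which received the same treatments, edgeR's quasi-likelihood test also called 0 genes (0%), with 1382 at an unadjusted p under 0.05, while DESeq2 called 40. The difference between the lines in their response, tested as an interaction over all 20 libraries, gave 0 genes (0%) at an adjusted p under 0.05 and 510 at an unadjusted one (2.96%). A difference between the lines in the response to the drug was therefore not shown for any gene. The 957 control line genes with an unadjusted p under 0.05 had the same sign in the overactive line for 706 (73.8%), against 60.4% of all genes tested. The lines share no mice, although the model shares 1 estimate of spread.

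Side by side, the control and overactive lines had list medians of 0.17 and -0.07 for immediate early transcription factors, 0.10 and 0.01 for effectors, and 0.08 and -0.05 for cAMP signalling. Other lists had like medians: -0.09 and -0.05 for ribosomal proteins, -0.06 and -0.11 for heat shock and folding genes, and 0.07 and 0.12 for cholesterol synthesis. Differences between list medians were not tested. Fos had log2 values of 0.66 (SE 0.42) in the control line and -0.12 (SE 0.41) in the overactive line, and the difference of 0.78 (SE 0.58) had an unadjusted p of 0.197 and an edgeR adjusted p of 1. Gabra5 and Pgm2l1 had like values in the lines, at 0.22 and 0.25 for the receptor subunit and 0.31 and 0.35 for the enzyme. Grm3 and Nedd9 did not, at 0.26 and -0.00 for Grm3 and 0.30 and -0.05 for Nedd9, with edgeR adjusted p of 1 for both differences. Slc17a7, the cortical marker, had log2 values of 0.47 and 1.60, the latter with an unadjusted p of 9.54e-04, and the part of cortical RNA in the list values of either line was not tested. Within control line saline, Gabra5 and Pgm2l1 were lowest in libraries 2, 3 and 4, those with the least Slc17a7. For Pgm2l1 these were at 241, 227 and 221 CPM, against 286 and 257 CPM in saline libraries 1 and 5. The part of cortical RNA in the values of Gabra5 and Pgm2l1 was not tested either.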

How the data were processed

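Striatal RNA of 20 mice was sequenced, and the 10 control line libraries (5 after d-amphetamine, 5 after saline) were compared. The authors deposited 1 table of expected counts per locus, unscaled between samples, in which 93.9% of values lay within 0.01 of a whole number. The submitters' processing notes name the builds mm10 and GRCm38, and the aligner and counter are not given in the sources used here. The 10576 loci without a symbol, 0.593% to 0.714% of the counts of each control line library, were left out, and 626 loci with several symbols were kept but not named. Gene positions are GENCODE M21 spans on GRCm38, counted from 1, and symbols are those of the table (Drd1a, now Drd1). The loci counted can extend beyond these spans, for example for Drd1a, Drd2, Drd3, Drd5, Slc18a2, Grm3, Gabra5, Srsf6, Chchd1 and Cebpd.

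Expected counts were rounded, filtered with filterByExpr on 4 groups, scaled by TMM and fitted with edgeR 4.0.16 (R 4.3.3) by quasi-likelihood, with 1 mean per group over all 20 libraries. Tests were two-sided, with Benjamini-Hochberg adjustment over the 17206 genes tested and a threshold of 0.05. CPM values use TMM-scaled library sizes. The model was also run on simulated counts, drawn independently for each gene and library. These hold no differences in surrounding tissue between libraries, so the run does not cover the tissue differences described above. Each of 37 gene lists (11 of cell type markers) is described by its counts and median, with no test. Genes of a list come from the same libraries and are not replicates. The members and lists were chosen with earlier results of these data known. Genes were named by rule: the 10 smallest p in each direction among loci with 1 symbol, an annotated position and a mean of at least 1 CPM, up to 3 members of each list with the smallest p, and 29 of 30 preset genes, the remaining one lying in a shared locus. Not every gene the rule takes is reported here. Alternatives changed the tool (DESeq2 1.42.0, or limma-voom of limma 3.58.1 with weighted samples), the scaling (RLE), the filter (none, or at least 1 CPM in 5 or more libraries), the libraries fitted (the 10 of the line alone, or all but 1), or the terms of the model (replicate number, region marker scores). DESeq2 without the filter, and leaving out saline libraries 3 and 4, were chosen after seeing the data. Control line totals were 32633562 to 46493247 counts. Figures were drawn with matplotlib 3.10.9 in Python 3.11.15.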

Additional observations from a re-analysis of the deposited data

Results flagged for a closer look

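In the control line, 18 of 264 sets of 5 libraries (6.82%) held a library far from the other 4 by Dixon's criterion, where chance gives about 5%. Amphetamine library 5 stood apart in Scnm1 (14.7 CPM, low), Slc31a2 (22.2 CPM, high), Ppp1r1b (1698 CPM, high) and Cyr61 (12.4 CPM, high). Among the other amphetamine libraries, library 2 was high in Th (13.3 CPM) and Adcy1 (609 CPM), library 3 in Pecam1 (14.5 CPM) and library 4 in Col1a2 (5.71 CPM). Amphetamine library 1 was high in Ttr (216 CPM) and in the choroid plexus sum (606 CPM). Saline library 1 was low in Qdpr (42.9 CPM) and high in Ier2 (2.94 CPM) and Homer2 (41.2 CPM). Saline library 2 was high in the summed temperature-responsive RNA-binding proteins (3333 CPM) and saline library 3 in Ttr (654 CPM) and the choroid plexus sum (1168 CPM). Saline library 5 was high in Slc31a2 (28.6 CPM) and in the microglial sum (748 CPM).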

How the results depend on the processing

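The control line count of 0 called genes was the same under RLE scaling, both other filters, DESeq2, limma-voom, a fit of only the groups compared, region marker scores, the replicate block and without each library; DESeq2 without the filter gave 2. No pairing by replicate number was seen in the correlations of same-numbered deviations (-0.195, 0.247, -0.077, 0.056 and 0.171), against -0.224 to 0.262 for other pairs. These correlations cannot exclude that same-numbered mice were handled together. With the replicate block 824 genes had an unadjusted p under 0.05. That count was 1462 with limma-voom, 508 without saline libraries 3 and 4 and 633 to 1291 without each library. Genes without overlap numbered 247 to 507 without each library and 453 without saline libraries 3 and 4, where fewer samples are compared. In the overactive line DESeq2 called 40 genes and, without the filter, 39; the cause was not tested. The minor Pcdh9 locus was called by DESeq2 without the filter (adjusted p = 0.0184). Of 37 list medians 20 kept their sign over 20 alternatives. Of 95 named genes 82 kept theirs. Th was at 0.01 with the block and 0.12 with region scores, and Per1 at -0.01 with region scores. Without saline libraries 3 and 4, log2 values were -0.08 for Per1, -0.06 for Drd1a, -0.01 for Drd2, -0.05 for Adora2a, -0.03 for Penk, -0.06 for Egr1, -0.08 for Npas4 and 0.02 for Oxt. Without each library they ran from -0.26 to 0.28 for Th, -0.02 to 0.08 for Drd1a, -0.03 to 0.09 for Adora2a, -0.03 to 0.14 for Ppp1r1b, -0.14 to 0.04 for Pdyn, -0.05 to 0.20 for Npas4, -0.06 to 0.10 for Per1, -0.23 to 0.08 for Hspa1a and -3.17 to 0.06 for Ttr. With 5 mice a group and a median SE of 0.11, small changes were not resolved.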
